A study of Mus musculus with 86 samples.

Results

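Unilateral ureteral obstruction (UUO) ties off 1 ureter so that urine backs up into the kidney on that side. It is a standard mouse model of tubular injury, inflammation and scarring. The results here compare obstructed with sham-operated kidneys of wild-type mice in 6 of the 86 samples of a study on the receptor kinase MERTK in tissue fibrosis: sham WT 2, 3 and 4 and UUO WT 2, 3 and 4. The wild-type groups hold 8 kidney samples, and the 6 were selected on measured levels of liver and tubule transcripts: replicate 1 of each group was left out, since sham WT 1 held 110200.2 RPM of the liver gene Alb and UUO WT 1 held almost no tubule transcripts. RPM are gene reads scaled to a common total, without further normalization. The summed level of 22 proximal tubule genes was 286 RPM in sham WT 1 against 32209 to 59323 in the other 3 sham libraries, and 207 in UUO WT 1 against 3476 to 5203 in the other 3 obstructed ones. Tubule and liver genes therefore chose the libraries, and the count values of the listed markers of tubule segments and liver are given below as a description with no test.

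The proximal tubule is the segment that reclaims most filtered solutes, and it runs on mitochondrial oxidation of fatty acids. After obstruction, tubule cells are known to lose transport and oxidative enzymes and to switch on injury genes. Leukocytes enter the interstitium, and fibroblasts and pericytes become myofibroblasts that lay down collagen.

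Both groups are mouse kidney of the genotype given as wild type, and both had an operation: sham surgery in one and UUO in the other. The labels used here state no strain, age, days since surgery or identity of the animals. They speak of biological replicates, and nothing ties a library to a named animal, so p-values measure the spread between libraries. RNA was total RNA from kidney tissue, read as unstranded 100-base libraries. A second, separate set of wild-type kidneys from the same study served as a test on libraries that the choice above did not touch: 3 sham and 4 UUO kidneys of mice given the solvent DMSO, deposited as FPKM (fragments per length of gene and depth). The DMSO columns carry no sample names, and their depth is unknown. The smallest p that an exact permutation of 3 against 3 libraries could give is 0.10, so calls below come from edgeR's quasi-likelihood test across all genes. Calls with DMSO come from a fit shared with kidneys of mice given the inhibitor UNC569.

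Reads in genes came to 15083894, 7216322 and 14949628 in sham WT 2, 3 and 4 and to 17084813, 15580920 and 16389451 in UUO WT 2, 3 and 4. The labels note 1 bad read file for sham WT 3 and 4 and UUO WT 3 and 4. Sham WT 3 stood apart. It had 58.5% unmapped reads, against 5.53% to 8.78% in the other 5, and 693 reads on a row named EGFP, a fluorescent reporter, against 5 in sham WT 2 and 0 in the other 4. Among 10702 genes with at least 10 CPM (as RPM, with library sizes scaled by TMM) in a sham library, 294 were over 4-fold above both other shams in sham WT 3, against 11 and 46 in sham WT 2 and 4. UUO WT 3 was the odd library of its group, with 90 of 11111 genes over 4-fold below both others. The first principal component held 61.1% of the variance and separated sham from UUO, and the second, with 24.3%, set sham WT 3 apart. Liver genes summed to 347, 47.1 and 313 CPM in sham WT 2, 3 and 4 and 30.4, 98.3 and 23.1 CPM in UUO WT 2, 3 and 4. Of markers of further tissues, the muscle gene Tnnt3 rose from no sham read to under 1 CPM, the exocrine enzyme gene Cela1 fell (log2 -3.33 ± 0.48, adjusted p = 1.33e-04), and no erythroid, adrenal or adipocyte gene passed. Without sham WT 3 the muscle gene Tnni2 and 3 of 7 adipocyte genes were higher as well. Y-linked genes were read in all 6 libraries, and 1 of 4 tested, Uty, fell (log2 -0.94 ± 0.28, adjusted p = 0.0169). Whatever sham WT 3 decides is given below with and without it, and the cause of its difference was not tested.

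Between obstructed and sham kidneys 39.3% of the 16395 genes tested differed at an adjusted p under 0.05: 3828 rose (23.3%) and 2623 fell (16%), with a median log2 fold change of 0.16. Without sham WT 3 the counts were 3714 higher (22%) and 3103 lower (18.4%) of 16898 genes, 40.3% in all, and the median over the genes tested both ways moved by -0.15. With both replicates 1 put back, 3243 rose (20.1%) and 2842 fell (17.6%) of 16162. A fit of the 6 wild-type libraries alone called fewer, with 2023 higher and 1585 lower of 15234. In the libraries with DMSO 4560 genes rose (29.7%) and 3957 fell (25.8%) of 15338, 55.5% in all, on the log2(FPKM + 1) scale, which understates changes of low genes. The 3 libraries of each group did not overlap, with UUO higher, for 28.5% of genes, and with UUO lower for 16.4%. These shares are the background for every list below.

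Genes of the injured tubule rose together. Of 20 tested genes of tubular injury and repair, 16 rose and none fell, with a median log2 fold change of 2.64, and the same numbers rose and fell without sham WT 3 (median 2.85). With both replicates 1 put back, 9 rose and none fell (median 2.05). UUO WT 1, left out for its lack of tubule transcripts, held 0.243 RPM of Havcr1, so these counts too are tied to the choice of libraries. Havcr1 encodes KIM-1, the phosphatidylserine receptor of injured proximal tubule, and lies on chromosome 11 from 46735080 to 46779578 (GRCm38). Its level was 1.44, 1.77 and 2.55 CPM in sham WT 2, 3 and 4 and 789, 575 and 331 CPM in UUO WT 2, 3 and 4, a log2 fold change of 8.19 ± 0.76 (SE, adjusted p = 8.57e-06). The lowest obstructed library lay far above the highest sham. Lcn2, the iron-siderophore binding protein NGAL, measured 4.72, 4.02 and 4.36 CPM in sham and 266, 315 and 345 CPM in UUO (log2 6.13 ± 0.61, adjusted p = 1.19e-05), with little spread inside either group.

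Keratins of simple and transitional epithelia rose beside them. Krt20 went from 0.48, 0 and 0 CPM to 49.3, 100.3 and 31.3 CPM (log2 8.25 ± 0.77, adjusted p = 8.57e-06), Krt18 rose by 3.42 ± 0.26 and Krt19 by 4.96 ± 0.93 on the log2 scale (adjusted p = 3.87e-06 and 8.69e-04). The secreted chaperone Clu rose by 2.84 ± 0.31, the copper carrier Cp by 4.03 ± 0.44 and the hyaluronan receptor Cd44 by 4.18 ± 0.51 (adjusted p = 1.82e-05, 1.77e-05 and 3.78e-05). Sox9, a transcription factor of tubule repair, did not pass, with 0, 67.9 and 0.494 CPM in sham and 83.8, 28 and 43.9 CPM in UUO (log2 1.23 ± 1.21, adjusted p = 0.445). Sham WT 3 lay above UUO WT 3 and 4 for this gene, and without it the log2 fold change was 7.59 (adjusted p = 3.81e-05). With DMSO, 18 of 20 genes of the list rose and 1, the integrin chain Itgb6, fell.

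**Figure D1:**
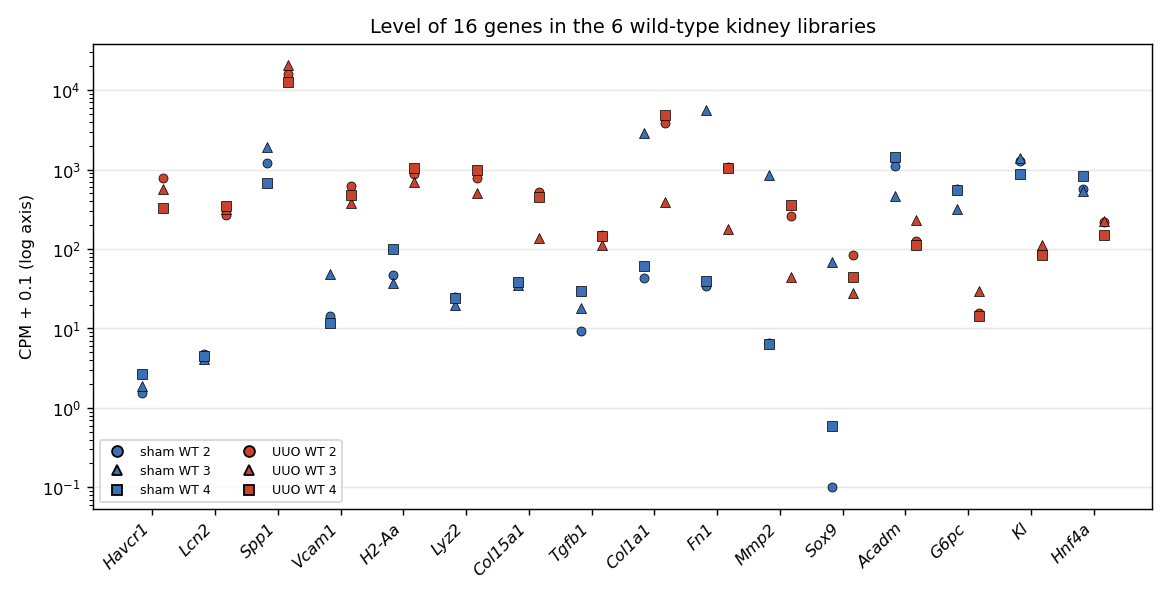
Level of 16 genes (CPM + 0.1, log axis) in each of the 6 wild-type libraries, sham in blue and UUO in red, with the marker shape giving the replicate number. Havcr1, Lcn2, Spp1, Vcam1, H2-Aa and Lyz2 were higher in all 3 UUO libraries than in any sham, and Acadm, G6pc, Kl and Hnf4a lower, while sham WT 3 (blue triangles) lay among or above the UUO libraries for Col1a1, Fn1, Mmp2 and Sox9.

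In the interstitial matrix the counts turned on sham WT 3. Of 19 genes of fibrillar collagens and their crosslinking, 6 rose and none fell with all 6 libraries, where 23.3% of all genes rose. Without sham WT 3, 18 of 19 rose (22% of all genes did so), and the median went from 1.37 to 3.28. Col1a1, the main chain of type I collagen, measured 42.6, 2861 and 61.8 CPM in sham and 3892, 393 and 4834 CPM in UUO. UUO WT 3 was thus far below sham WT 3, and the groups overlapped. The log2 fold change was 1.62 ± 1.18 (adjusted p = 0.294) with sham WT 3 and 5.75 ± 0.93 (adjusted p = 3.24e-04) without it. With DMSO, Col1a1 stood at 6.66 ± 1.67 FPKM in 3 sham kidneys and 196 ± 42 FPKM in 4 obstructed ones (SD, log2 4.68 ± 0.41, limma adjusted p = 5.23e-08).

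Adipocyte markers were likewise highest among the shams in sham WT 3. Of 8 such genes 7 were tested and none passed (median log2 0.73), whereas without sham WT 3 Adipoq, Cidec and Retn rose (log2 5.48, 4.22 and 4.59, adjusted p = 0.0134, 0.0467 and 0.0436) and the median was 3.52. Their summed level was 36.6, 491 and 50.7 CPM in sham WT 2, 3 and 4 and 126, 293 and 67.1 CPM in UUO WT 2, 3 and 4. Among the obstructed libraries the order was the opposite of that of Col1a1, with UUO WT 3 highest in adipocyte genes and lowest in collagen. Lep, the defining hormone, had at most 0.804 CPM in any of the 6, and the part of fat tissue in the collagen values was not tested.

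Col3a1, the partner collagen of reticular fibres, ran the same way at 53.9, 1038 and 66.5 CPM and 2713, 268 and 3892 CPM (adjusted p = 0.0576, and 6.07e-04 without sham WT 3), and it also passed without UUO WT 3 (log2 3.11). Lox, which starts collagen crosslinking, was 11.5, 508 and 6.42 CPM in sham and 236, 67.8 and 197 CPM in UUO, a log2 value of -0.06 ± 1.06 that became 4.12 without sham WT 3 (adjusted p = 0.967 and 1.45e-04). The genes of this list that did not depend on sham WT 3 included Col12a1, a collagen of fibril surfaces, at 10.5, 28.6 and 10.5 CPM and 533, 41.5 and 421 CPM (log2 4.34 ± 0.73, adjusted p = 4.04e-04). Loxl2, a lysyl oxidase active on basement membrane collagen, went from 13.8, 12.4 and 13.2 CPM to 111, 37.6 and 165 CPM (log2 2.99 ± 0.44, adjusted p = 1.58e-04).

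Basement membrane genes moved chain by chain. Of 22 tested genes 14 rose and 2 fell, and without sham WT 3 16 rose and 3 fell. The ubiquitous type IV collagen chains Col4a1 and Col4a2 rose, Col4a1 from 222, 406 and 353 CPM to 1675, 525 and 1185 CPM (log2 1.79 ± 0.36, adjusted p = 0.00163) and Col4a2 by 1.96 ± 0.36 (adjusted p = 7.51e-04). The 2 that fell were chains of the mature glomerular and distal tubule network: Col4a3 went from 487, 261 and 365 CPM to 110.3, 118 and 116 CPM (log2 -1.69 ± 0.22, adjusted p = 5.50e-05), and Col4a4 changed by -1.15 ± 0.19 (adjusted p = 4.12e-04). The same 4 calls were made with DMSO (log2 1.98, 1.96, -1.19 and -1.41). Col15a1, a collagen that anchors basement membrane to fibrils, measured 38.6, 34.8 and 38.6 CPM in sham and 519, 138 and 453 CPM in UUO (log2 3.31 ± 0.38, adjusted p = 2.41e-05). The heparan sulfate proteoglycan Agrn rose by 2.07 ± 0.20 (adjusted p = 9.07e-06), with no overlap between groups.

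Among 18 matricellular and provisional matrix genes 12 rose, and all 18 rose without sham WT 3, as did all 18 with DMSO. Spp1, or osteopontin, a secreted protein of injured tubule and of macrophages, went from 1199, 1895 and 668 CPM to 15709, 20593 and 12449 CPM (log2 3.70 ± 0.44, adjusted p = 3.18e-05), with every obstructed library above every sham. Fn1, fibronectin, was 34.6, 5531 and 39.1 CPM in sham and 1079, 180.2 and 1048 CPM in UUO, so that sham WT 3 alone exceeded every obstructed library. Its log2 value was -1.28 ± 1.25 (adjusted p = 0.444) with that library and 4.28 ± 0.63 (adjusted p = 1.74e-04) without it, against 3.11 with DMSO. Tnc, tenascin C of wound matrix, did not overlap, at 7.6, 4.99 and 8.24 CPM and 188, 41.5 and 265 CPM (log2 4.55 ± 0.65, adjusted p = 1.26e-04). Ccn2, the TGF-beta target CTGF, rose from 99.5, 81.6 and 128 CPM to 913, 459 and 542 CPM (log2 2.63 ± 0.37, adjusted p = 9.98e-05), and the elastic fibre protein Eln rose by 4.11 ± 0.76 (adjusted p = 7.82e-04). The matricellular genes Postn and Bgn passed in the fit without sham WT 3 (log2 5.15 and 2.98, adjusted p = 0.0133 and 1.31e-04, against 0.0821 and 0.0516 with it) or without UUO WT 3 (log2 3.51 and 1.91).

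Markers of myofibroblasts and pericytes rose in 9 of 13 cases and fell in none (10 without sham WT 3). Acta2, the smooth muscle actin that defines myofibroblasts, measured 24.6, 89.6 and 66.2 CPM in sham and 298, 104 and 236 CPM in UUO (log2 1.83 ± 0.49, adjusted p = 0.00938). With DMSO it did not pass, at log2 0.97 ± 0.52 (adjusted p = 0.122). Pdgfrb, the PDGF receptor of pericytes, rose from 20.6, 100.2 and 60.5 CPM to 291, 159 and 269 CPM (log2 1.99 ± 0.42, adjusted p = 0.00202), and Thy1, a surface protein of fibroblasts and T cells, from 0.16, 0 and 2.31 CPM to 90, 31 and 57.6 CPM (log2 6.00 ± 0.77, adjusted p = 5.50e-05). Des rose by 1.87 ± 0.31 (adjusted p = 3.53e-04). Vim was 48.3, 989 and 68.5 CPM in sham and 534, 223 and 753 CPM in UUO, with sham WT 3 the highest of all 6, and its log2 fold change was 0.45 ± 0.79 (adjusted p = 0.682), or 3.00 (adjusted p = 1.02e-04) without that library. In bulk tissue, more cells of a type and more RNA per cell cannot be told apart, here and in every result below.

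**Figure D2:**
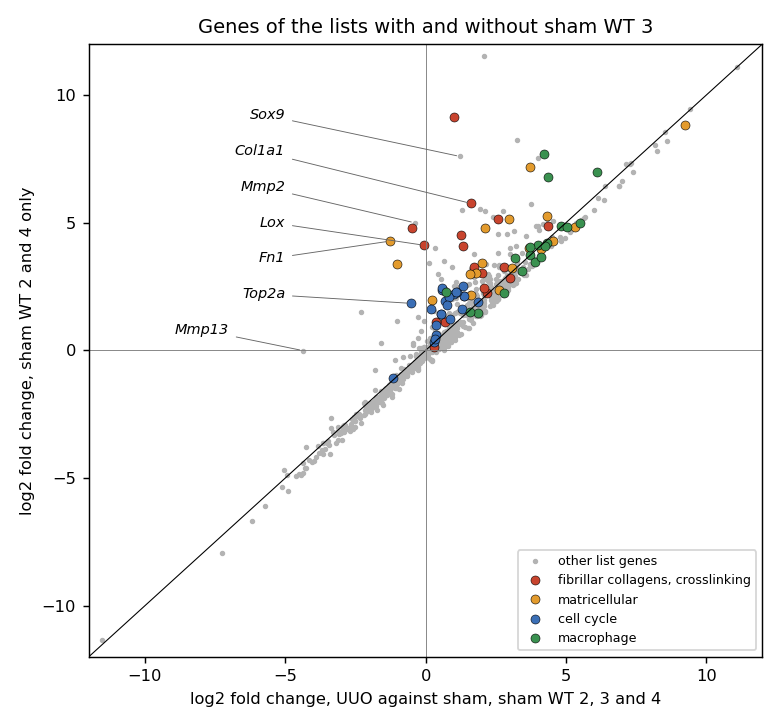
Log2 fold change of UUO against sham for the genes of the lists with all 3 sham libraries (x axis) and with sham WT 2 and 4 only (y axis), with the line of equal values. Collagen, matricellular and cell cycle genes such as Col1a1, Fn1 and Top2a lay above the line, whereas most other genes lay close to it and Mmp13 moved from -4.36 to -0.01.

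Matrix proteases and inhibitors moved both ways, with 10 of 19 higher and 4 lower, and 13 higher and 3 lower without sham WT 3. Mmp7, matrilysin, a secreted epithelial protease, had no read in any of the 3 sham libraries and 9.65, 16.3 and 20 CPM in UUO WT 2, 3 and 4 (adjusted p = 1.93e-05), and was listed at 0 in all 3 sham kidneys with DMSO against 5.13 ± 0.637 FPKM in the 4 obstructed ones. The 250 bases before its RefSeq start, chr9:7691840-7692089 on the plus strand of GRCm38.p6, are printed because they hold a match to the AP-1 letters TGANTCA, in capitals, 63 bases before the start.
Mmp7: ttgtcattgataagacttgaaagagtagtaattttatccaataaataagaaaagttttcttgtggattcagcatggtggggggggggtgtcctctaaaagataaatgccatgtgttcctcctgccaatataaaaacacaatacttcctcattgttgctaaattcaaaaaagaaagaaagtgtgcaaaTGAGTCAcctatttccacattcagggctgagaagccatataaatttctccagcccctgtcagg
That motif, searched on both strands, occurs in 6.75% of 32851 windows of this length, and a match is not a measured site. Of 132 named genes with a window 8 hold it. Besides Mmp7 these were Cxcl10, Lif and Trem2, which rose, Clec2h and Ddc, which were lower, and Hspa5 and Ddit3, which did not pass with all 6 libraries.

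Timp1, an inhibitor of metalloproteinases, rose from 0, 23.3 and 0.412 CPM to 73.1, 23.4 and 111 CPM (log2 3.25 ± 1.11, adjusted p = 0.0313), where sham WT 3 and UUO WT 3 were level. Timp1 lost its call without sham WT 4, UUO WT 2 or UUO WT 4 (log2 2.66, 3.20 and 2.72). The gelatinase Mmp2 and the membrane protease Mmp14 passed without sham WT 3 (log2 5.00 and 3.78, adjusted p = 1.08e-04 and 1.15e-05) and not with it, and Mmp14 also without UUO WT 3 (log2 2.04). Mmp2 measured 6.48, 853 and 6.34 CPM in sham and 260.3, 44.6 and 356 CPM in UUO. Those called lower were Timp3, an inhibitor bound to matrix, the brush border meprins Mep1a and Mep1b, and the collagenase Mmp13. Timp3 went from 1178, 872 and 810.2 CPM to 371, 125 and 275 CPM (log2 -1.89 ± 0.51, adjusted p = 0.00901). The meprins are proximal tubule genes, so their counts carry no independent test: Mep1b was at 248, 19.1 and 312 CPM and 2.9, 12.4 and 4.29 CPM. With DMSO it fell from 44.3 ± 6.79 to 1.36 ± 1.07 FPKM (SD, n = 3 and 4, limma adjusted p = 2.09e-08). Mmp13 rested on sham WT 3 alone, at 0.56, 84.8 and 2.06 CPM against 2.26, 0.919 and 0.997 CPM (adjusted p = 0.0235), and without that library its log2 value was -0.01 (adjusted p = 0.993). Without UUO WT 2, 3 or 4 it did not pass either (log2 -4.89, -4.13 and -4.16).

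TGF-beta signals through type I and type II receptors to SMAD proteins and is a main driver of fibrosis, while BMP7 opposes it in kidney. In this list 11 of 19 genes rose and 1 fell, the same counts without sham WT 3. The ligand Tgfb1 rose from 9.28, 18 and 29.6 CPM to 152, 111 and 145 CPM (log2 2.84 ± 0.36, adjusted p = 4.66e-05), and the activin chain Inhbb from 1.76, 2.74 and 5.11 CPM to 44.2, 25.3 and 37.5 CPM (log2 3.46 ± 0.43, adjusted p = 4.09e-05). Ltbp2, a protein of elastic microfibrils, showed 1 of the largest rises in the data, from 0.64, 1.29 and 0.824 CPM to 189.8, 26.2 and 153 CPM (log2 7.14 ± 0.70, adjusted p = 1.02e-05). The BMP antagonist Grem1 rose from 0.40, 0 and 0.165 CPM to 12.6, 10.1 and 12.3 CPM (log2 5.69 ± 0.93, adjusted p = 3.31e-04). Bmp7 itself was the gene that fell, from 51.4, 50.7 and 64.4 CPM to 15.5, 25.3 and 17 CPM (log2 -1.53 ± 0.28, adjusted p = 6.93e-04). All 5 of these calls were also made with DMSO.

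Growth factors and their receptors moved about as often as all genes, of which 23.3% rose and 16% fell. Of 18 in the list 5 rose, namely Pdgfa, Pdgfb, Fgf2, Areg and Ereg, and 3 fell, namely Fgf1, Met and Igf1r. Without sham WT 2, or without any 1 UUO library, 1 of the 3 falls was left. Pdgfb, a mitogen of pericytes, rose from 21.2, 16.1 and 39 CPM to 241, 148 and 220.1 CPM (log2 2.99 ± 0.29, adjusted p = 1.05e-05). The EGF receptor ligand Areg had no read in sham and 4.09, 2.06 and 1.65 CPM in UUO (adjusted p = 7.68e-04). Hbegf, another ligand, did not pass (log2 0.12 ± 0.26, adjusted p = 0.738), nor did the receptor Egfr (log2 -0.09 ± 0.19, adjusted p = 0.744). Fgf1 fell from 353, 104 and 291 CPM to 61.5, 79.2 and 53.5 CPM (log2 -1.95 ± 0.46, adjusted p = 0.00415).

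Of 24 genes of the Wnt, Notch and Hedgehog pathways, 10 rose and none fell, with or without sham WT 3, and 2 fell without sham WT 4. The ligand Wnt4 went from 1.36, 1.29 and 2.64 CPM to 32.5, 39.3 and 48.6 CPM (log2 4.47 ± 0.59, adjusted p = 7.11e-05), and Nkd2, a negative regulator of Wnt signals, from 0, 0 and 1.24 CPM to 53.2, 12.2 and 52.1 CPM (log2 6.36 ± 0.88, adjusted p = 9.26e-05). The Notch ligand Jag1 rose by 0.89 ± 0.19 and the receptor Notch1 by 1.80 ± 0.17 on the log2 scale (adjusted p = 0.00182 and 9.37e-06). Gli1, the transcription factor that reports Hedgehog signalling, rose from 0.32, 0.965 and 0.659 CPM to 12.5, 5.3 and 9.23 CPM (log2 3.85 ± 0.61, adjusted p = 2.58e-04).

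Most tested markers of macrophages, antigen presentation and T and NK cells rose with or without sham WT 3, while those of B cells and neutrophils rested on few genes. Macrophage markers rose in 17 of 19 cases with a median log2 fold change of 4.00 (18 and 4.03 without sham WT 3, and 16 of 17 with DMSO). Their summed level was 159, 349 and 243 CPM in sham and 2376, 1612 and 2878 CPM in UUO, and the groups did not overlap. Lyz2, lysozyme of myeloid cells, went from 24.6, 19.5 and 24.3 CPM to 781, 499 and 976 CPM (log2 5.04 ± 0.47, adjusted p = 8.57e-06). Adgre1, the F4/80 antigen, rose from 3.28, 6.6 and 4.86 CPM to 94.3, 25.3 and 112 CPM (log2 4.00 ± 0.54, adjusted p = 7.42e-05), with UUO WT 3 the lowest obstructed library.

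Trem2, a lipid receptor of scar-associated macrophages, rose from 0, 0.644 and 0.247 CPM to 12, 15.7 and 24.3 CPM (log2 6.12 ± 0.83, adjusted p = 8.50e-05), and Mrc1, the mannose receptor, from 7.52, 10.6 and 2.55 CPM to 87.5, 61.3 and 116 CPM (log2 3.71 ± 0.43, adjusted p = 2.48e-05). Csf1r, the receptor of the growth factor CSF1, rose less, by 1.87 ± 0.50 (adjusted p = 0.0092). The haemoglobin scavenger receptor Cd163 did not pass, at 2.88, 1.93 and 0.824 CPM and 3.74, 8.76 and 4.49 CPM (log2 1.59 ± 0.63, adjusted p = 0.0578), and passed without sham WT 2 (log2 2.06).

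All 12 genes of MHC class II presentation and dendritic cells rose, with and without sham WT 3 and with DMSO. Cd74, the invariant chain, went from 148, 137 and 316 CPM to 3169, 2324 and 3563 CPM (log2 3.91 ± 0.55, adjusted p = 1.01e-04). H2-Aa rose by 3.83 ± 0.48 and Ciita, the coactivator that switches these genes on, by 3.03 ± 0.76 (adjusted p = 4.31e-05 and 0.00599). T and NK cell markers rose in 10 of 14 cases. Cd3e, a chain of the T cell receptor complex, went from 0.72, 0 and 1.24 CPM to 5.17, 2.22 and 5.14 CPM (log2 2.55 ± 0.67, adjusted p = 0.00812) and Cd4 from 0, 0.161 and 0.988 CPM to 16.8, 5.9 and 11.9 CPM (log2 4.79 ± 0.73, adjusted p = 1.91e-04). Cd8a did not pass (log2 1.51 ± 0.70, adjusted p = 0.103).

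Among 10 B and plasma cell genes only Ighm and Cd79b rose, where 23.3% of all genes did so. Ighm went from 5.84, 6.28 and 8.24 CPM to 39.1, 34.2 and 63.8 CPM (log2 2.75 ± 0.32, adjusted p = 2.73e-05), and Cd79b rose by 1.97 ± 0.74 (adjusted p = 0.0476). Cd79b lost its call without sham WT 3 or 4 or UUO WT 2 or 4 (log2 1.38 to 2.03) and without any 1 library labelled knockout. Cd79a measured 0, 1.45 and 0.824 CPM and 3.15, 1.41 and 1.85 CPM (adjusted p = 0.30), although 6 of 7 genes of this list rose with DMSO. Only 4 of 10 neutrophil genes had enough reads to be tested, and 3 rose: Csf3r, S100a8 and S100a9. The granule genes Mpo, Elane, Camp and Ngp and the surface marker Ly6g were not among those tested. Csf3r, the G-CSF receptor, went from 1.28, 3.22 and 1.4 CPM to 19.1, 13.4 and 27.8 CPM (log2 3.42 ± 0.57, adjusted p = 3.96e-04). S100a8 and S100a9, subunits of calprotectin, lost their calls without sham WT 3 (adjusted p = 0.105 and 0.0933, against 0.0418 and 0.0383) and did not pass with DMSO. They also lost them without sham WT 2 (log2 3.10 and 3.33) or UUO WT 4 (log2 3.41 and 2.95), and S100a8 without UUO WT 3 (log2 3.86). Both calls were lost as well without the knockout-labelled sham KO 3 or sham KO 4, and that of S100a8 without sham KO 1.

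Chemokine genes rose in 14 of 19 cases and fell in none (16 without sham WT 3, 17 of 19 with DMSO). Cxcl1, a neutrophil attractant, rose from 7.84, 17.2 and 0.659 CPM to 87.1, 94 and 52.9 CPM (log2 3.24 ± 0.78, adjusted p = 0.00471). Its neighbour Cxcl2 had 2 reads over the 3 sham libraries and 34.1, 24.3 and 25.1 CPM in UUO (adjusted p = 1.56e-05), and was listed at 0 in every sham kidney with DMSO. Their promoter windows are shown because, of 132 named genes with a RefSeq window in GRCm38.p6, these were the 2 that held the NF-kB letters GGGANTTTC with 1 further C, in capitals, 71 and 97 bases before the start. The windows are chr5:90890995-90891244 for Cxcl1 and chr5:90903649-90903898 for Cxcl2, both on the plus strand.
Cxcl1: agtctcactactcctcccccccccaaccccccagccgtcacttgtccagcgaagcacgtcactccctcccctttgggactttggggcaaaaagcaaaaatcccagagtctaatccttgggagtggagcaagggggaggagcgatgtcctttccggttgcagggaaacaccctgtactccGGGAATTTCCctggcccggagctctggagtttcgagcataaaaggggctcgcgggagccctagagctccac
Cxcl2: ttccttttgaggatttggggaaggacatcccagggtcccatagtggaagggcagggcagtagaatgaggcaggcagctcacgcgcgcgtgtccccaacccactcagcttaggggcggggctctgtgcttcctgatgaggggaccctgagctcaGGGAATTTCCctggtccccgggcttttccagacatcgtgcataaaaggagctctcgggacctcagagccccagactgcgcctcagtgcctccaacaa
The motif, on either strand, occurs in 0.356% of all windows of this length.

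The monocyte attractant Ccl2 rose from 0.48, 8.53 and 0.906 CPM to 47.2, 26.9 and 45.4 CPM (log2 3.74 ± 0.76, adjusted p = 0.00163), and the T cell attractants Ccl5 and Cxcl10 by 5.41 ± 0.61 and 3.32 ± 0.56 (adjusted p = 2.27e-05 and 4.13e-04). The CCR6 ligand Ccl20 had no read in sham and 3.74, 2.06 and 8.78 CPM in UUO (adjusted p = 4.04e-04). Cxcl12, a stromal homing signal, did not pass (204, 593 and 160.3 CPM and 101, 265 and 79.5 CPM, log2 -1.10 ± 0.56, adjusted p = 0.134), and without UUO WT 3 it was lower (log2 -1.81).

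Of 20 cytokines and NF-kB genes 18 rose, in both fits. The adhesion molecule Vcam1, through which leukocytes bind, went from 14.1, 47.9 and 11.7 CPM to 619, 378 and 477 CPM (log2 4.34 ± 0.48, adjusted p = 1.99e-05), and Icam1 rose by 2.92 ± 0.31 (adjusted p = 1.42e-05). Among transcription factors and inhibitors of the pathway, Relb rose from 7.12, 4.83 and 9.64 CPM to 80.6, 62.4 and 88.6 CPM (log2 3.40 ± 0.27, adjusted p = 4.14e-06) and Nfkbia by 1.92 ± 0.23 (adjusted p = 2.95e-05). Tnf, an inducer of the pathway, was 0, 0 and 0.0824 CPM in sham and 4.63, 4.22 and 6.03 CPM in UUO (adjusted p = 1.77e-04), and Il6, with no sham read, reached 2.02, 0.541 and 0.698 CPM (adjusted p = 0.00199). Il1b rose from 4.88, 1.13 and 1.32 CPM to 30.8, 5.46 and 24.5 CPM (log2 3.00 ± 0.62, adjusted p = 0.00182), and the alarmin Il33 by 3.23 ± 0.38 (adjusted p = 3.17e-05).

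Complement genes rose in 11 of 15 cases (12 without sham WT 3), and with DMSO 10 of 15 rose and 2 fell. The counts depended on the choice of libraries. With both replicates 1 put back, among them sham WT 1 with its high Alb, 4 rose and the median log2 fold change went from 2.76 to 0.28. C3, the central component, measured 36.6, 610.0 and 26.8 CPM in sham and 1737, 1193 and 1604 CPM in UUO (log2 2.75 ± 0.85, adjusted p = 0.0198, and 5.48 without sham WT 3). C4b, a component of the classical pathway, rose by 2.61 ± 0.85 (adjusted p = 0.0246). C4b lost its call without sham WT 2, sham WT 4, UUO WT 2 or UUO WT 4 (log2 2.28, 2.36, 2.57 and 2.09), and its reads may have been shared with its near copy C4a. Cfb, the protease of the alternative pathway, did not pass in the counts, at 1.28, 0 and 5.76 CPM and 1.77, 0.162 and 0.598 CPM, and fell with DMSO, from 64.6 ± 21.5 to 23 ± 8.22 FPKM (SD, n = 3 and 4, limma adjusted p = 0.00438). Cfb was thus low in all 6 count libraries but not in the FPKM, and the reason was not tested. Its neighbour C2, a protease of the classical pathway, was the other gene lower with DMSO, and it was called higher in the counts (log2 0.99 ± 0.37, adjusted p = 0.045) and not without sham WT 3 (adjusted p = 0.18).

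Interferon-response genes rose in 12 of 17 cases and in 11 without sham WT 3. With both replicates 1 put back 6 rose, and the median log2 fold change went from 2.02 to 0.78. Irf7, the regulator of type I interferon, went from 7.68, 8.21 and 20.9 CPM to 49.3, 52.6 and 48.8 CPM (log2 2.02 ± 0.43, adjusted p = 0.00212), and Isg15 rose by 2.06 ± 0.48 (adjusted p = 0.00406). Ifit1 did not pass here (log2 1.09 ± 0.44, adjusted p = 0.0663) and passed with DMSO (adjusted p = 0.00719) and, in the counts, without sham KO 3 (log2 1.01). In the machinery of regulated cell death 8 of 15 genes rose. Gsdmd, the pore former of pyroptosis, went from 4.16, 2.74 and 6.67 CPM to 36, 38.3 and 44.3 CPM (log2 3.10 ± 0.31, adjusted p = 1.26e-05), and the necroptosis kinase Ripk3 rose by 2.51 ± 0.41 (adjusted p = 3.31e-04). Its partner Mlkl did not pass (log2 0.85 ± 0.47, adjusted p = 0.166) except without sham WT 3 (log2 1.48), nor did the ferroptosis enzyme Acsl4 (log2 -0.15 ± 0.32, adjusted p = 0.745).

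MERTK, AXL and TYRO3 are receptor kinases through which phagocytes clear dying cells, with GAS6 and protein S as ligands. Axl rose from 29.7, 75.5 and 38 CPM to 317, 184 and 349 CPM (log2 2.58 ± 0.35, adjusted p = 8.18e-05) and Tyro3 from 3.04, 5.63 and 3.87 CPM to 14.7, 13.8 and 12.8 CPM (log2 1.73 ± 0.36, adjusted p = 0.00183), with no overlap. Mertk did not pass (log2 -0.20 ± 0.19, adjusted p = 0.432), nor did it with DMSO (log2 -0.33 ± 0.18, adjusted p = 0.135). Of the ligands, Pros1 rose from 29, 41.7 and 28.2 CPM to 156, 104 and 166 CPM (log2 2.11 ± 0.22, adjusted p = 1.56e-05) and Gas6 did not pass (log2 0.23 ± 0.29, adjusted p = 0.564). Over the whole list of efferocytosis genes 8 of 12 rose and 1 fell, the fatty acid transporter Cd36, from 814, 349 and 596 CPM to 65.2, 63.5 and 71.9 CPM (log2 -3.13 ± 0.34, adjusted p = 1.79e-05). With both replicates 1 put back 6 rose and none fell, so the call of Cd36 depended on the choice of libraries. With DMSO 8 of 12 genes of the list rose and 2 fell.

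Tubule segments are described in the counts without a test. The 22 proximal tubule genes summed to 55676, 37398 and 73039 CPM in sham WT 2, 3 and 4 and to 3313, 4384 and 2842 CPM in UUO WT 2, 3 and 4, with a median log2 fold change of -4.09. The endocytic receptor Lrp2 measured 2896, 2505 and 2031 CPM and 234, 221 and 189 CPM, and the phosphate transporter Slc34a1 4651, 4783 and 9737 CPM and 489.8, 709 and 381 CPM. Slc7a13, a transporter of the last proximal segment, was 1454, 394 and 1289.6 CPM and 14.4, 15.1 and 13.7 CPM. In the kidneys with DMSO, where the genes can be tested, all 22 fell (25.8% of all genes did so), with a median of -4.33. There Lrp2 went from 92.1 ± 13.7 to 8.4 ± 2.64 FPKM (SD, n = 3 and 4, adjusted p = 7.81e-08), Slc34a1 from 2816 ± 350.2 to 154 ± 84 FPKM (adjusted p = 6.61e-07), and Slc7a13 from 366 ± 49 to 10.5 ± 9.23 FPKM (adjusted p = 1.13e-07).

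Loop and distal tubule genes summed to 9517, 4511 and 5951 CPM in sham and 952, 2682 and 1069 CPM in UUO (median log2 -1.75), with sham WT 3 the lowest sham and UUO WT 3 the highest obstructed library. Egf, made by the distal nephron, was 2026, 751 and 1288 CPM and 15.7, 49.1 and 12.5 CPM. The distal tubule calcium buffer Pvalb was 8.16, 29.9 and 25.1 CPM in sham and had no read in any UUO library. Umod, or uromodulin, overlapped between groups at 2116, 359 and 1742 CPM and 485, 1226 and 482 CPM. With DMSO 9 of 13 genes fell and 1 rose, the calcium channel Trpv5. Egf went from 98.9 ± 11.4 to 3.33 ± 1.62 FPKM (adjusted p = 4.70e-10), while Umod did not pass, at 383 ± 67.8 and 362 ± 97.7 FPKM (adjusted p = 0.842).

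Collecting duct genes had the smallest median of the segments, -0.60, and their sums overlapped (1339, 1021 and 1593 CPM in sham, 542, 1625 and 670.0 CPM in UUO). Aqp2, the water channel under vasopressin control, was 137, 55.7 and 324 CPM in sham and 23.3, 538 and 20.6 CPM in UUO, so that UUO WT 3 exceeded every sham. With DMSO it fell from 564 ± 168 to 38.4 ± 33 FPKM (adjusted p = 1.54e-05), and 13 of 18 genes of the list fell. Slc26a4, the pendrin exchanger of intercalated cells, was 136, 120.0 and 100.1 CPM and 21.5, 19.7 and 20.2 CPM and fell with DMSO (log2 -2.72 ± 0.33, adjusted p = 2.25e-06). Foxi1, the transcription factor of the same cells, was 21, 42.6 and 41.9 CPM and 30.4, 36.2 and 41.2 CPM and did not pass with DMSO (log2 -0.34 ± 0.19, adjusted p = 0.146).

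**Figure D3:**
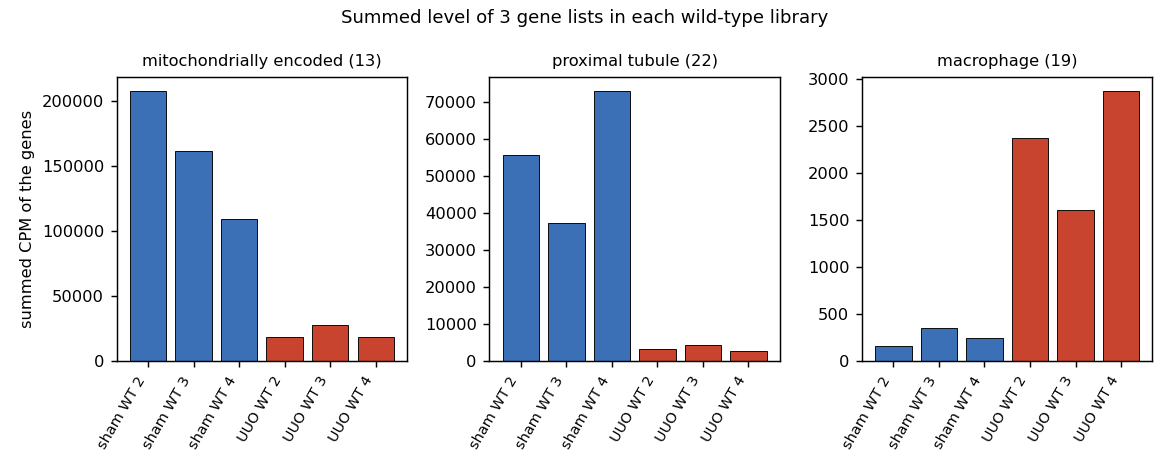
Summed CPM of 13 mitochondrially encoded, 22 proximal tubule and 19 macrophage genes in each wild-type library (bars from 0, sham in blue, UUO in red). The first 2 sums were lower in all 3 UUO libraries than in any sham, and the macrophage sum was higher, with UUO WT 3 nearest to sham in each panel.

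Transcription factors of the mature tubule fell in 9 of 15 cases (11 without sham WT 3, 12 of 15 with DMSO). These factors and the metabolic, antioxidant and hormone genes below are largely tubule transcripts, so they share the measure that chose the libraries. Their calls in the counts are therefore no independent test, and the kidneys with DMSO are the separate one. Hnf4a, the regulator of proximal tubule identity, went from 568, 533 and 820.2 CPM to 216, 226 and 148 CPM (log2 -1.70 ± 0.35, adjusted p = 0.00184, with DMSO -2.41, adjusted p = 3.59e-05). Ppara and Ppargc1a, which drive fatty acid oxidation and mitochondrial biogenesis, changed by -2.46 ± 0.62 and -1.92 ± 0.36 on the log2 scale (adjusted p = 0.00655 and 9.63e-04). Pax8, a nephron lineage factor, was the gene that rose (log2 0.92 ± 0.26, adjusted p = 0.012), and it lost the call without sham WT 3 (adjusted p = 0.0693).

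Transcription factors of injury rose in 11 of 18 cases and in 16 without sham WT 3. Cebpd, an acute-phase factor, went from 5.52, 7.4 and 8.73 CPM to 80.1, 84.5 and 87 CPM (log2 3.54 ± 0.31, adjusted p = 8.31e-06), and the epithelial factor Elf3 rose by 2.76 ± 0.32 (adjusted p = 2.48e-05). Klf6, Atf3 and Myc rose by 2.28 ± 0.35, 3.59 ± 0.56 and 2.24 ± 0.42 (adjusted p = 1.91e-04, 2.32e-04 and 9.55e-04). Runx1 went from 3.12, 19.3 and 1.32 CPM to 65.9, 39.6 and 62.4 CPM (log2 2.91 ± 0.65, adjusted p = 0.00291, and 4.55 without sham WT 3). The AP-1 subunit Jun rose by 1.53 ± 0.35 (adjusted p = 0.00355), while Fos, at 9.36, 186 and 3.05 CPM and 56, 27.2 and 129 CPM, passed only without sham WT 3 (log2 3.41, adjusted p = 0.00142).

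Podocyte genes rose in 7 of 12 cases in the counts (6 without sham WT 3, and 4 without UUO WT 4). With DMSO Tcf21 and Kirrel were among those that rose, and Nphs1 and Podxl among those that fell. The slit diaphragm gene Nphs1 did not pass in the counts (log2 0.64 ± 0.36, adjusted p = 0.174) and fell with DMSO (log2 -0.69, adjusted p = 0.0438). Tcf21, a factor of podocytes and of stromal cells, rose from 7.84, 8.21 and 27.8 CPM to 111, 122 and 98.4 CPM (log2 2.90 ± 0.40, adjusted p = 8.69e-05). Wt1 went from 14.4, 8.04 and 18 CPM to 29, 31.5 and 64 CPM (adjusted p = 0.00427) and did not pass with DMSO (adjusted p = 0.227).

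Endothelial genes rose in 6 of 15 cases, against 23.3% of all genes. Without sham WT 3 they rose in 4 (22% of all genes) and without sham WT 2 in 3 (3048 of all 16931 genes). These 2 counts lie near the shares of all genes. With DMSO Pecam1, Cdh5 and Vwf rose and Kdr, Tek, Emcn and Ehd3 fell. Pecam1, found on all endothelium, rose from 61.1, 46.7 and 61.2 CPM to 141, 96.3 and 116 CPM (log2 1.06 ± 0.26, adjusted p = 0.00568). The VEGF receptor Kdr, the capillary mucin Emcn and the glomerular gene Ehd3 did not pass (log2 -0.52 ± 0.28, 0.30 ± 0.25 and -0.19 ± 0.23, adjusted p = 0.151, 0.346 and 0.545). Their log2 values with DMSO were -0.78, -0.76 and -0.94.

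Markers of urothelium, the lining of the renal pelvis, differed between obstructed libraries. Krt5, a basal keratin, was 0.48, 0 and 1.73 CPM in sham and 59.5, 8.98 and 1.35 CPM in UUO, so that UUO WT 4 lay below sham WT 4. Krt5, Krt14 and Krt15 were the 3 of 10 genes called (adjusted p = 0.0461, 0.0284 and 0.0394), and none was called without sham WT 3 or without UUO WT 2 (log2 2.66, 3.46 and 3.75 without the latter). Without sham WT 2 all 3 calls were lost too (log2 4.43, 6.53 and 4.63), and without sham WT 4 those of Krt5 and Krt14 (log2 6.18 and 4.82). Krt5 also lost its call without sham KO 1, 2 or 3 or UUO KO 1, 3 or 4. The umbrella cell genes Upk1b and Upk3a did not pass (adjusted p = 0.0543 and 0.218). Upk1b passed without sham WT 2 (log2 4.71), sham KO 4 (log2 3.13) or UUO KO 2 (log2 3.21). With DMSO all 10 genes of the list rose.

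Most genes of oxidative metabolism fell. In fatty acid oxidation 21 of 23 genes fell and none rose, with or without sham WT 3 (median log2 -1.77), and all 23 fell with DMSO. Acadm, which starts oxidation of medium chains, went from 1097, 459 and 1443 CPM to 126, 229.8 and 113 CPM (log2 -2.68 ± 0.46, adjusted p = 4.55e-04). The peroxisomal enzyme Ehhadh changed by -3.98 ± 0.52 (adjusted p = 5.74e-05), more than Cpt1a, the carnitine gate of mitochondria, at -1.22 ± 0.19 (adjusted p = 2.48e-04). That order was the same with DMSO (log2 -3.78 and -0.55), and the difference between genes was not tested.

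The 12 tested mitochondrially encoded genes all fell, with a median of -3.05, and 12 of 13 fell with DMSO. The sum over 13 genes was 208197, 162028 and 109242 CPM in sham and 19027, 27816 and 18477 CPM in UUO, so that the highest obstructed library was well below the lowest sham. The complex I gene mt-Nd4 went from 19763, 14104 and 12098 CPM to 1540.3, 2396 and 1430.1 CPM (log2 -3.10 ± 0.35, adjusted p = 2.44e-05), and mt-Co1 of complex IV by -2.56 ± 0.41 (adjusted p = 2.78e-04). Nuclear genes of the respiratory chain fell in 19 of 22 cases (all 22 without sham WT 3 and with DMSO) with a smaller median of -1.46. Ndufs1 of complex I changed by -2.07 ± 0.22, Sdha of complex II by -1.80 ± 0.22, Uqcrc1 of complex III by -1.27 ± 0.32, Cox4i1 of complex IV by -1.11 ± 0.39 and Atp5a1 of the ATP synthase by -1.65 ± 0.27 (adjusted p = 1.65e-05, 3.56e-05, 0.00648, 0.0372 and 3.49e-04). For Cox4i1 the groups overlapped, at 338, 359 and 902 CPM and 178, 390.1 and 173 CPM, and it lost its call without sham WT 4, UUO WT 2 or UUO WT 4 (log2 -0.52, -0.92 and -0.90).

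In the citric acid cycle and mitochondrial biogenesis 10 of 13 genes fell. Idh3a changed by -1.33 ± 0.19, citrate synthase Cs by -0.78 ± 0.17 and the mitochondrial DNA factor Tfam by -0.88 ± 0.17 (adjusted p = 1.30e-04, 0.00248 and 0.00135). All 9 genes of gluconeogenesis and fructose use fell in both experiments. Pck1, the committed step, went from 2446, 1341 and 3231 CPM to 126, 315 and 112 CPM (log2 -3.66 ± 0.80, adjusted p = 0.00254), and Fbp1 changed by -3.69 ± 0.75 (adjusted p = 0.00158). G6pc, which releases glucose, went from 567, 323 and 557 CPM to 15.7, 29.4 and 14.3 CPM (log2 -4.61 ± 0.95, adjusted p = 0.00172). Its window, chr11:101367466-101367715 on the plus strand, is shown because it was the 1 window among the named genes with the HNF1 letters GTTAATNAT with 1 further T, in capitals, 221 bases before the start.
G6pc: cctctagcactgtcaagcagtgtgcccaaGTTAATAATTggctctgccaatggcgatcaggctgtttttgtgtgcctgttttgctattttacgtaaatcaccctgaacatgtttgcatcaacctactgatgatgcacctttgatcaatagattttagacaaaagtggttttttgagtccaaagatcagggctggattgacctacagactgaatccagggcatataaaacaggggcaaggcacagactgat
That motif, on either strand, occurs in 0.371% of all windows, and the HNF4 letters CAAAGTCCA, in 0.384% of all, were found in no window of the named genes.

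Glycolysis genes moved both ways. Of 16 genes 3 rose (Pfkp, Slc16a3 and Pfkfb3) and 7 fell, against 23.3% and 16% of all genes. Rises were thus no commoner than among all genes. With DMSO 4 of 16 rose and 8 fell. Slc16a3, the lactate exporter MCT4, went from 1.04, 1.45 and 0.988 CPM to 11.6, 5.9 and 8.08 CPM (log2 2.90 ± 0.44, adjusted p = 1.80e-04), and the phosphofructokinase Pfkp rose by 1.02 ± 0.25 (adjusted p = 0.00576). Hk2 was 0.32, 13.7 and 0.494 CPM and 23.9, 9.74 and 25.2 CPM and passed only without sham WT 3 (log2 5.47, adjusted p = 1.67e-05). Ldha, lactate dehydrogenase, fell (log2 -0.75 ± 0.23, adjusted p = 0.0188) and lost the call without sham WT 4, UUO WT 2 or UUO WT 4 (log2 -0.53, -0.71 and -0.64), while Pkm and the glucose transporter Slc2a1 did not pass (log2 -0.43 ± 0.37 and -0.29 ± 0.25, adjusted p = 0.376 and 0.373).

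Amino acid metabolism fell in 15 of 17 cases, and with DMSO 15 of 17 fell and 2 rose. Ass1, by which the proximal tubule makes arginine, went from 2579, 3766 and 3813 CPM to 179.6, 198 and 109.6 CPM (log2 -4.38 ± 0.72, adjusted p = 3.41e-04). Arg2, a mitochondrial arginase, was the gene that rose in the counts, from 2.24, 1.93 and 0.906 CPM to 13, 14.4 and 5.74 CPM (log2 2.71 ± 0.71, adjusted p = 0.00807).

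In sterol and fatty acid synthesis 6 of 16 genes fell and 1, the cholesterol exporter Abca1, rose (log2 1.70 ± 0.25, adjusted p = 1.62e-04). Hmgcs1 went from 845, 646 and 709 CPM to 123, 184 and 119 CPM (log2 -2.37 ± 0.24, adjusted p = 1.32e-05). Idi1, an isomerase of the same pathway, went from 136, 71.3 and 71.1 CPM to 6.1, 4.76 and 7.68 CPM (log2 -3.91 ± 0.37, adjusted p = 9.07e-06), and did not pass with DMSO (log2 -0.72 ± 0.32, adjusted p = 0.0685). Fasn did not pass (log2 0.16 ± 0.39, adjusted p = 0.774).

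Antioxidant genes fell in 12 of 18 cases, and in 14 of 17 with DMSO, where 1 rose. Gpx3, the plasma glutathione peroxidase made by the proximal tubule, went from 19608, 21029 and 28240.0 CPM to 3828, 6747 and 2778 CPM (log2 -2.37 ± 0.60, adjusted p = 0.00628). Catalase, Cat, changed by -2.52 ± 0.33 and the NRF2 target Nqo1 by -1.82 ± 0.55 (adjusted p = 7.11e-05 and 0.0165), and Nqo1 lost its call without UUO WT 2 or 4 (log2 -1.57 and -1.47). The 2 oxidases of the list moved apart: Nox4, of tubule cells, fell from 703, 717 and 297 CPM to 85, 57.3 and 55.2 CPM (log2 -3.12 ± 0.41, adjusted p = 6.09e-05), and Cybb, the phagocyte oxidase, rose from 11.2, 14.3 and 7.41 CPM to 62, 51.4 and 86.1 CPM (log2 2.61 ± 0.34, adjusted p = 6.16e-05). Hmox1 did not pass, with sham WT 3 the highest library (19.8, 116 and 35.7 CPM and 65.7, 43.5 and 40.7 CPM, adjusted p = 0.793).

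Of 12 hormone and renin-angiotensin genes 5 fell (among them Ace, Kl, Vdr and Pth1r) and 2 rose (Cyp27b1 and Fgfr1), and 3 fell without UUO WT 2. With DMSO 6 of 12 fell and 2 rose. Kl encodes Klotho, the coreceptor of FGF23, and went from 1290.1, 1376 and 866 CPM to 86.1, 111 and 83.9 CPM (log2 -3.65 ± 0.54, adjusted p = 1.67e-04). Cyp27b1, which activates vitamin D, rose from 12.7, 23.2 and 7.49 CPM to 37.7, 32.3 and 22.2 CPM (log2 1.10 ± 0.38, adjusted p = 0.0313), and Cyp24a1, which breaks it down, did not pass (log2 -1.80 ± 0.75, adjusted p = 0.0696). Cyp27b1 lost its call without sham WT 2 or 4 or UUO WT 2 or 3 (log2 1.01, 0.77, 0.93 and 1.07). Cyp24a1 was lower without sham WT 4 (log2 -2.24), and also without sham KO 2 or sham KO 3 (log2 -1.82 in each). Renin, Ren1, did not pass either (log2 1.03 ± 1.08, adjusted p = 0.477).

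**Figure D4:**
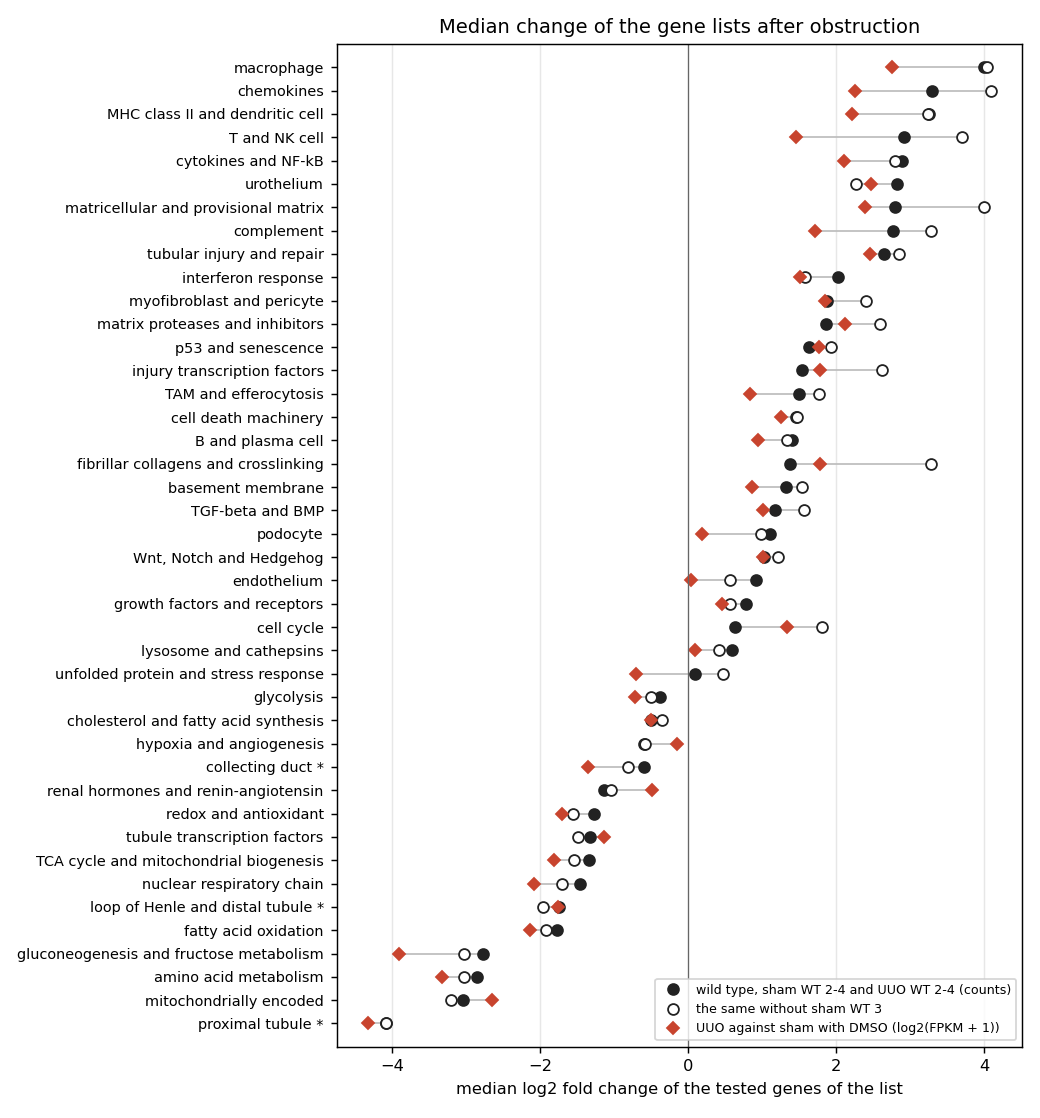
Median log2 fold change of the tested genes of each list in the 6 wild-type libraries (filled circles), the same without sham WT 3 (open circles) and in the separate kidneys with DMSO (red diamonds, log2(FPKM + 1) scale). Leukocyte, injury and matrix lists lay to the right of 0 and tubule and metabolic lists to the left, and lists marked with an asterisk chose the libraries.

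Proliferation depended on sham WT 3. Of 22 cell cycle genes 3 rose with all 6 libraries (Mki67, Mcm5 and Foxm1), where 23.3% of all genes rose. Without sham WT 3, 16 rose (22% of all genes did so), and Ccnd1 fell in both fits. Without sham WT 2, sham WT 4 or UUO WT 2, 1 gene rose. Mki67, the proliferation antigen, was 6.72, 22 and 5.68 CPM in sham and 39.9, 16.9 and 30.5 CPM in UUO (log2 1.37 ± 0.48, adjusted p = 0.0354), and lost its call without sham WT 2 or 4 or UUO WT 2 or 4 (log2 1.09, 1.04, 1.08 and 1.34). Top2a was 8.56, 99.6 and 4.94 CPM and 39.9, 10.6 and 27.3 CPM, with log2 values of -0.52 ± 0.80 (adjusted p = 0.636) and 1.84 (adjusted p = 0.0087) with and without sham WT 3. Cdk1 passed only without it (log2 2.37, adjusted p = 8.61e-04). Ccnd1 changed by -1.16 ± 0.29 (adjusted p = 0.00634). With DMSO 19 of 21 genes rose and Ccnd1 fell.

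Among 16 p53 and senescence genes 10 rose and 1 fell, the p53 target Ccng1. The cell cycle inhibitor Cdkn1a (p21) rose from 2.56, 29.6 and 7.74 CPM to 70.1, 49.9 and 52.1 CPM (log2 2.15 ± 0.61, adjusted p = 0.0121). Cdkn2a, which encodes p16, had no read in sham and 1.77, 0.487 and 1.05 CPM in UUO (adjusted p = 0.0103). Mdm2 did not pass (log2 -0.07 ± 0.18, adjusted p = 0.772). The stress hormone Gdf15 rose from 6.32, 14.8 and 17.5 CPM to 39.5, 50.4 and 37.6 CPM (log2 1.73 ± 0.43, adjusted p = 0.00621) but did not pass with DMSO (log2 -0.21 ± 0.40, adjusted p = 0.67).

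Unfolded protein genes rose in 2 of 14 cases (Xbp1 and Creb3l1) and fell in none, against 23.3% and 16% of all genes. Without sham WT 3 Xbp1, Ddit3 and Asns rose and Herpud1 fell (log2 -0.96, adjusted p = 0.0267), which also fell without UUO WT 3 (log2 -0.94). With DMSO 9 of 14 fell and 1, Trib3, rose, and the difference between the experiments was not tested. Creb3l1 lost its call without any 1 of the 6 wild-type libraries except UUO WT 3 (log2 0.75 to 1.43). The same held without any 1 library labelled knockout except UUO KO 4. The chaperone Hspa5 (BiP) was 547, 1010.3 and 711 CPM and 1039, 498 and 664 CPM (log2 -0.04 ± 0.35, adjusted p = 0.93), whereas with DMSO it fell from 583 ± 119 to 128 ± 12.1 FPKM (SD, n = 3 and 4, adjusted p = 1.90e-06). Ddit3 (CHOP) did not pass (log2 0.47 ± 0.45, adjusted p = 0.429), rose without sham WT 3 (log2 1.19, adjusted p = 0.0196) and fell with DMSO (log2 -2.12 ± 0.26, adjusted p = 2.64e-06). Xbp1 rose in the counts (log2 0.93 ± 0.21, adjusted p = 0.00304) and fell with DMSO (log2 -0.43 ± 0.12, adjusted p = 0.00662). The solvent, the unit and the set of animals differ together between the experiments and cannot be told apart.

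Of 11 hypoxia genes 4 fell (Vegfa, Bnip3, Car9 and Pdk1) and 1 rose, Epas1. Epas1 encodes HIF-2 alpha and was called with all 6 libraries (log2 0.77 ± 0.27, adjusted p = 0.0363), but not without sham WT 3 (adjusted p = 0.206) nor without sham WT 2 or any 1 UUO library. Vegfa, the endothelial growth factor, went from 413, 283 and 385 CPM to 129, 185 and 159 CPM (log2 -1.19 ± 0.21, adjusted p = 6.21e-04). Bnip3 and Car9, targets of hypoxia-inducible factors, changed by -2.12 ± 0.34 and -2.32 ± 0.58 (adjusted p = 2.84e-04 and 0.00604), and Hif1a and Adm did not pass (adjusted p = 0.117 and 0.908). Without sham WT 4 Hif1a was lower (log2 -0.97). In the lysosome list 5 of 14 rose (Ctsc, Ctsk, Ctss, Hexa and Grn) and Lamp1 and Lamp2 fell, against 23.3% and 16% of all genes. Without sham WT 4, 8 rose. Ctss, a protease of antigen-presenting cells, went from 11, 13.8 and 13.2 CPM to 280.5, 217 and 358 CPM (log2 4.49 ± 0.33, adjusted p = 2.92e-06), and the ubiquitous Ctsd did not pass (log2 0.62 ± 0.24, adjusted p = 0.0537) except without sham WT 4 (log2 0.78).

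The 12 largest rises among genes with a mean of at least 10 CPM and no overlap between groups were Fbn2, Cxcl2, Lgi2, Krt20, Havcr1, Mfap4, Fcrls, Ccn3, Ubd, Ltbp2, Itgbl1 and Lif. Fbn2, a fibrillin, had 2 reads over the sham libraries and 48.1, 3.52 and 77.8 CPM in UUO (adjusted p = 4.94e-05). Mfap4, a protein of elastic microfibrils, went from 0, 0 and 1.15 CPM to 138, 13 and 92.4 CPM (log2 7.50 ± 1.15, adjusted p = 2.12e-04), and Lgi2 from 0, 0 and 0.412 CPM to 81.7, 22.2 and 88.5 CPM (log2 8.58 ± 0.80, adjusted p = 8.73e-06). Both had UUO WT 3 well below the other obstructed libraries. Ubd, the ubiquitin-like modifier FAT10, was even across UUO libraries at 23.9, 26.7 and 22.2 CPM against 0, 0 and 0.412 CPM (log2 7.19 ± 0.88, adjusted p = 3.81e-05). Lif, an IL-6 family cytokine, went from 0.16, 0 and 0.412 CPM to 32.8, 14.7 and 33.8 CPM (log2 6.89 ± 0.56, adjusted p = 4.51e-06). Of the 12, 10 also rose with DMSO. Ccn3 did not pass there (log2 0.37 ± 0.22, adjusted p = 0.173) and Itgbl1 was too low to be tested.

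The largest falls were the noncoding RNA genes Gm48558 and D630029K05Rik and Clec2h, Cyp2d12, Ces1g, Akr1c14, Slc22a22, Slc22a28, Acsm3, Rps27rt, Slc22a30 and Slco1a1. Of these, Slc22a22, Slc22a28 and Slc22a30 are organic anion transporters and Slco1a1 carries organic anions and steroids. Such transporters and enzymes are made in tubule or liver, by which the libraries were chosen, so their counts are a description. Slc22a28 was at 454, 355 and 310.1 CPM in sham and 7.73, 7.03 and 7.83 CPM in UUO, and Slco1a1 at 218, 307 and 351 CPM and 6.84, 4.0 and 8.93 CPM. With DMSO Slc22a28 and Slco1a1 fell by limma (log2 -4.14 and -4.44, adjusted p = 8.59e-09 and 2.02e-08), as did the enzyme genes Akr1c14 and Acsm3 (log2 -4.43 and -4.57, adjusted p = 5.02e-07 and 2.94e-08). Several of these genes belong to families of near copies, whose reads may have been shared. Rps27rt, a ribosomal protein gene close in sequence to Rps27, was high in sham WT 3 alone (3.2, 298 and 2.55 CPM, against 2.12, 2.54 and 1.65 CPM in UUO), and without that library it was not called (log2 -0.55, adjusted p = 0.747), nor without UUO WT 2, 3 or 4 (log2 -5.58, -5.73 and -5.42). With DMSO 10 of the 12 fell, Rps27rt did not pass (adjusted p = 0.156) and Gm48558 was not tested.

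The 8 kidney libraries labelled knockout shared the fit. The response to obstruction did not differ between the genotype labels for any of the 16395 genes in edgeR (0% at an adjusted p under 0.05, 4466 at an unadjusted p under 0.05), while DESeq2 called 1651 and edgeR without sham WT 4 called 5127. A p that misses the threshold does not show that the labels respond alike, and nothing above was tested as particular to wild type. Mertk itself was at 45.3 to 79.6 RPM in the 6 wild-type libraries and 49.9 to 77.7 in the 8 labelled knockout.

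The 2 wild-type experiments share no library and could be compared gene by gene. Of 3325 genes that rose in the counts and were tested with DMSO, 2556 rose there too (76.9%, against 31.3% of all 13748 genes tested in both), and 18 fell. Of 2437 that fell, 1844 fell with DMSO (75.7%, against 27% of all), and 21 rose. Across genes, which are not independent replicates, the log2 fold changes had a Pearson r of 0.757, and 0.798 without sham WT 3.

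**Figure D5:**
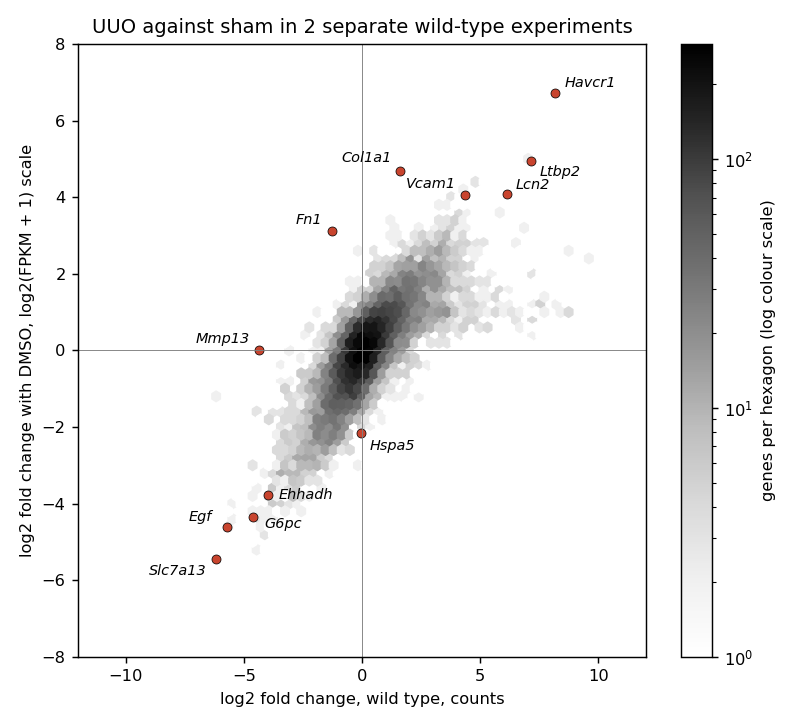
Log2 fold change of UUO against sham in the count libraries (x axis) and in the kidneys with DMSO (y axis, log2(FPKM + 1) scale) for 13748 genes, as hexagons shaded by the number of genes on a log colour scale. Most genes lay along a rising band, with Havcr1 and Ltbp2 at the top right, Slc7a13 and Egf at the bottom left, and Fn1, Col1a1, Mmp13 and Hspa5 off the band.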

How the data were processed

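Mouse kidney RNA from 16 libraries of 2 genotype labels and 2 operations was deposited by the authors as read counts per gene, 1 table per library. Of the 3 count columns of each table, the one that ignores strand was used, as the TruSeq v2 kit named in the labels' protocols does not mark strand. Per the labels' protocols, RNA was taken up with a Qiagen mini kit and read on a HiSeq 2000. The submitters' processing notes list FastQC, Trim Galore, STAR and edgeR beside 2 builds, hg38 and mm10, with no role or version. The kidneys with DMSO came as FPKM in a table deposited by the authors, and how those values were made is not given in the sources used here. Of 31054 gene rows in the counts, 99.9% matched a symbol in the GENCODE M21 annotation of GRCm38.

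Counts of 14 libraries (6 wild-type and the 8 labelled knockout, which share the estimate of spread) were filtered with filterByExpr, scaled by TMM and tested with edgeR 4.0.16's quasi-likelihood F test in R 4.3.3, with group as the design and Benjamini-Hochberg adjustment over all genes. A gene was called at an adjusted p under 0.05, and every adjusted p given with counts is from this test. FPKM values were tested with limma 3.58.1, with an intensity trend on log2(FPKM + 1), over genes that reached an FPKM of 1 in 3 or more columns, in 1 fit with the kidneys given the inhibitor. The tests were tried on simulated data first. Alternatives included DESeq2 1.42.0, other scalings and filters, and leaving out each library. The libraries were noisier than counting error, with median chi-square values between replicates of 3.09 to 20.2 against 0.455 for sampling alone.

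The libraries, the 50 lists (747 genes) and the alternatives were chosen with earlier results of these data known. Named genes were the key members of each list, the 12 largest rises and falls with a mean of at least 10 CPM and no overlap between groups, and the members behind counts of 5 or fewer. Lists are described by counts and medians, with no set test, and some members are counted but not reported here by name. Sham WT 1, UUO WT 1 and the other tissues of the study were left out.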

Additional observations from a re-analysis of the deposited data

Results flagged for a closer look

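Slc12a1, the salt transporter of the loop of Henle, was at 31.8 FPKM in 1 of the 4 obstructed kidneys with DMSO, against 16.5 to 18.4 FPKM in the other 3, a gap too wide for the range of 4 values by Dixon's criterion. Chance gives about 1 such gap in 20 groups, and this was 1 of 56 genes examined.

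Reads on the EGFP row were outside the comparisons. There were 693 in sham WT 3 and 1032 in UUO KO 4, against 5 in sham WT 2, 15 in UUO KO 2, 7 in UUO KO 3 and 0 in the other 11 kidney libraries. The same 2 libraries had the highest shares of unmapped reads, 58.5% and 32%.

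In the libraries left out, Alb stood at 110200.2 RPM in sham WT 1, against 9.01 to 95.9 in sham WT 2 to 4. The adipocyte hormone gene Adipoq stood at 919.8 RPM in UUO WT 1, against 3.84 to 27 in UUO WT 2 to 4.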

How the results depend on the processing

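With other software, scalings and filters the counts of 3828 higher and 2623 lower genes moved by less than 1.5 times: DESeq2 gave 3848 and 3277, RLE size factors 3404 and 2986, and no filter on low counts 2913 and 2928. In a fit of the 6 wild-type libraries alone, which changes the spread, the filter and the scaling together, 2023 genes rose and 1585 fell, and of those without sham WT 3, an alternative chosen after seeing the data, 2512 rose. Leaving out 1 library at a time gave 2856 to 4292 higher and 1816 to 3103 lower genes. The difference between genotype labels was 0 genes, 1651 with DESeq2, 1789 without the libraries noted for a bad read file, and 0 to 5127 over the fits without 1 library. Replicate numbers were shared by the groups. Deviations from the group means had an r of -0.14, -0.26 and -0.13 between same-numbered sham and UUO libraries, and of -0.13 to 0.20 between differently numbered ones. With 3 libraries per group, replicate 3 being the odd one in both, these values cannot show whether the numbers pair them. The main fit used no pairing. With the replicate block 3536 genes rose and 2296 fell. With DMSO all alternatives stayed within 1.5 times of the main counts.

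Of 211 genes given a fold change in the counts, 114 kept direction and call under every setting, and 149 under every setting other than those that leave out sham WT 3. Over 5061 pairs of gene and setting 213 lost a call, 106 gained one and 22 turned direction. With all 16 kidney libraries Cp turned to -0.76, Krt18 to -0.10, C3 to -1.29, C4b to -0.80 and Abca1 to -0.19. Over the fits without 1 library Lox ranged from -0.61 to 4.12, Fn1 from -1.84 to 4.28, Mmp2 from -0.94 to 5.00 and Top2a from -1.03 to 1.84, each highest without sham WT 3. Without both libraries with EGFP reads, chosen after seeing the data, they turned to 4.03, 4.21, 4.92 and 1.76. With wild-type libraries alone and no sham WT 3, Lox, Fn1 and Mmp2 turned to 4.07, 4.23 and 4.95. Without the libraries noted for a bad read file, Lox turned to 4.29, Fn1 to 4.90, Mmp2 to 5.26, Mmp13 to 1.94, Hmox1 to 1.66 and Top2a to 2.15. The turns without sham WT 3 come from its own levels, and the cause of the others was not tested. Sham WT 3, with 7216322 reads in genes, is the shallowest of the 6 libraries, and genes under about 1 CPM rest on few reads there.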
